A study of Caenorhabditis elegans with 23 samples.

Results

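The genes described here are 8 Caenorhabditis elegans genes for enzymes of the histone lysine demethylase families: rbr-2, spr-5, lsd-1, amx-1, utx-1, jmjd-3.1, jmjd-1.2 and jmjd-2. They were chosen by name, and every probe set annotated to one of them was read in every array, which gave 12 of the 22548 probe sets on the array. RNA of whole worms was measured in 23 samples, 1 array each, in 8 groups defined by age, genotype and RNAi. On day 8, a mid-life adult age, the groups were glp-1(e2141ts) worms treated with ash-2 RNAi (3 arrays), glp-1(e2141ts) worms given the empty vector, EV (3 arrays), wild-type worms, labelled N2, treated with ash-2 RNAi (3 arrays) and wild-type worms given EV (2 arrays, after the submitters left out a further one for quality). The same 4 combinations were sampled at the third larval stage, L3, with 3 arrays each. All worms were grown at 20 degrees. The glp-1(e2141ts) allele is temperature-sensitive and can leave worms with few germ cells, depending on the temperature. The labels do not state a shift to another temperature. Separate cultures behind the arrays of a group are not stated in the labels, so p-values measure only the spread between these samples, which may be technical.

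Histone lysine demethylases remove methyl groups from histone tails and so reverse what the methyltransferases write. They form a pair of families with different chemistry: flavin-dependent amine oxidases of the LSD1 type, to which spr-5, lsd-1 and amx-1 belong, and oxygenases with a Jumonji domain, to which rbr-2, utx-1, jmjd-3.1, jmjd-1.2 and jmjd-2 belong. RBR-2 acts on trimethylated H3K4, the mark placed by the complex that contains ASH-2, and SPR-5 acts on dimethylated H3K4. UTX-1 and JMJD-3.1 act on H3K27, JMJD-1.2 on H3K9 and H3K27, and JMJD-2 on H3K9 and H3K36. In worms, spr-5 is best known for clearing H3K4 methylation in the germ line between generations, and rbr-2 and utx-1 have been studied for their effects on lifespan. The study asked which ash-2-dependent expression changes need an intact germ line.

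All 8 genes were found on the array, 5 with 1 probe set, rbr-2 with 3, and utx-1 and jmjd-2 with 2 each. Of the 12 probe sets, 4 were of a kind that can bind several transcripts (called shared): 174562 of rbr-2 and the single probe sets of spr-5, jmjd-3.1 and jmjd-1.2, so values of these are uncertain as to their transcript. The other 8 were not shared. Values below are the authors' log2 intensities, called levels. A level is compared only with levels of the same probe set, since probes differ in brightness, and the percentile of a probe set within an array is given where its place is described. No detection calls were used here.

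Arrays of 1 group correlated at 0.983 to 0.998 across probe sets, and no pair was identical. Array medians lay at 4.89 to 5.01 on day 8 and 5.72 to 5.91 at L3, without overlap, so normalization seems to have been run per age, and levels were not tested between ages. As a check of the RNAi target, the 3 shared ash-2 probe sets were higher under ash-2 RNAi in every age and genotype, by 4.54 to 8.29 on the log2 scale. They show no lower ash-2 level, and the source of the rise was not tested. The ash-2 probe set that is not shared fell in day 8 WT (-1.82, limma adjusted p = 2.35e-04). It did not pass in the other 3 comparisons, at -0.40 in day 8 glp-1, -0.33 in L3 WT and -0.24 in L3 glp-1 worms. Arrays are therefore called by their labels throughout. In L3 WT EV arrays, 9 of 10 oocyte markers lay on average above the 80th percentile of their array and 4 of 9 sperm markers did, although larvae of the labelled stage do not yet carry oocytes or sperm. Day 8 WT EV arrays had all 10 oocyte markers and none of the 9 sperm markers above that percentile. In glp-1 EV arrays 2 of the 10 oocyte markers, perm-2 and perm-4, lay above it at each age. They did so in WT EV arrays too, so this percentile does not separate the genotypes at these 2. Under EV on day 8, 8 oocyte markers were lower and 2 higher in glp-1 than in WT worms (limma adjusted p under 0.05). At L3, 8 were lower and 2 did not pass. Of the 9 sperm markers, 2 lay above the 80th percentile in L3 glp-1 EV arrays and 4 in L3 glp-1 ash-2 RNAi arrays. In day 8 glp-1 arrays none did.

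Most of the demethylase genes were lower in day 8 glp-1 worms than in day 8 WT worms. Under EV, 11 of the 12 probe sets fell, 0 rose, and those 11 covered 7 genes. The changes that passed ran from -0.70 for jmjd-3.1 to -3.1 for lsd-1 on the log2 scale, and amx-1 did not pass. Of all 22548 probe sets, 26.6% fell and 28.3% rose in this comparison, 54.9% in all. The median change of the 12 probe sets was -1.52, beside 0.04 for all probe sets. Tests were limma fits across all probe sets of an age, with p-values adjusted by Benjamini and Hochberg and a threshold of 0.05, and whole-worm RNA cannot tell fewer cells of a type from less RNA per cell. The germline markers moved with this result: all 13 of 13 fell, their mean level was 4.79 to 4.94 in the glp-1 EV arrays and 8.95 to 9.67 in the WT EV arrays, and in glp-1 EV arrays none lay above the 80th percentile. The part of this difference in the demethylase values was not tested.

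**Figure D1:**
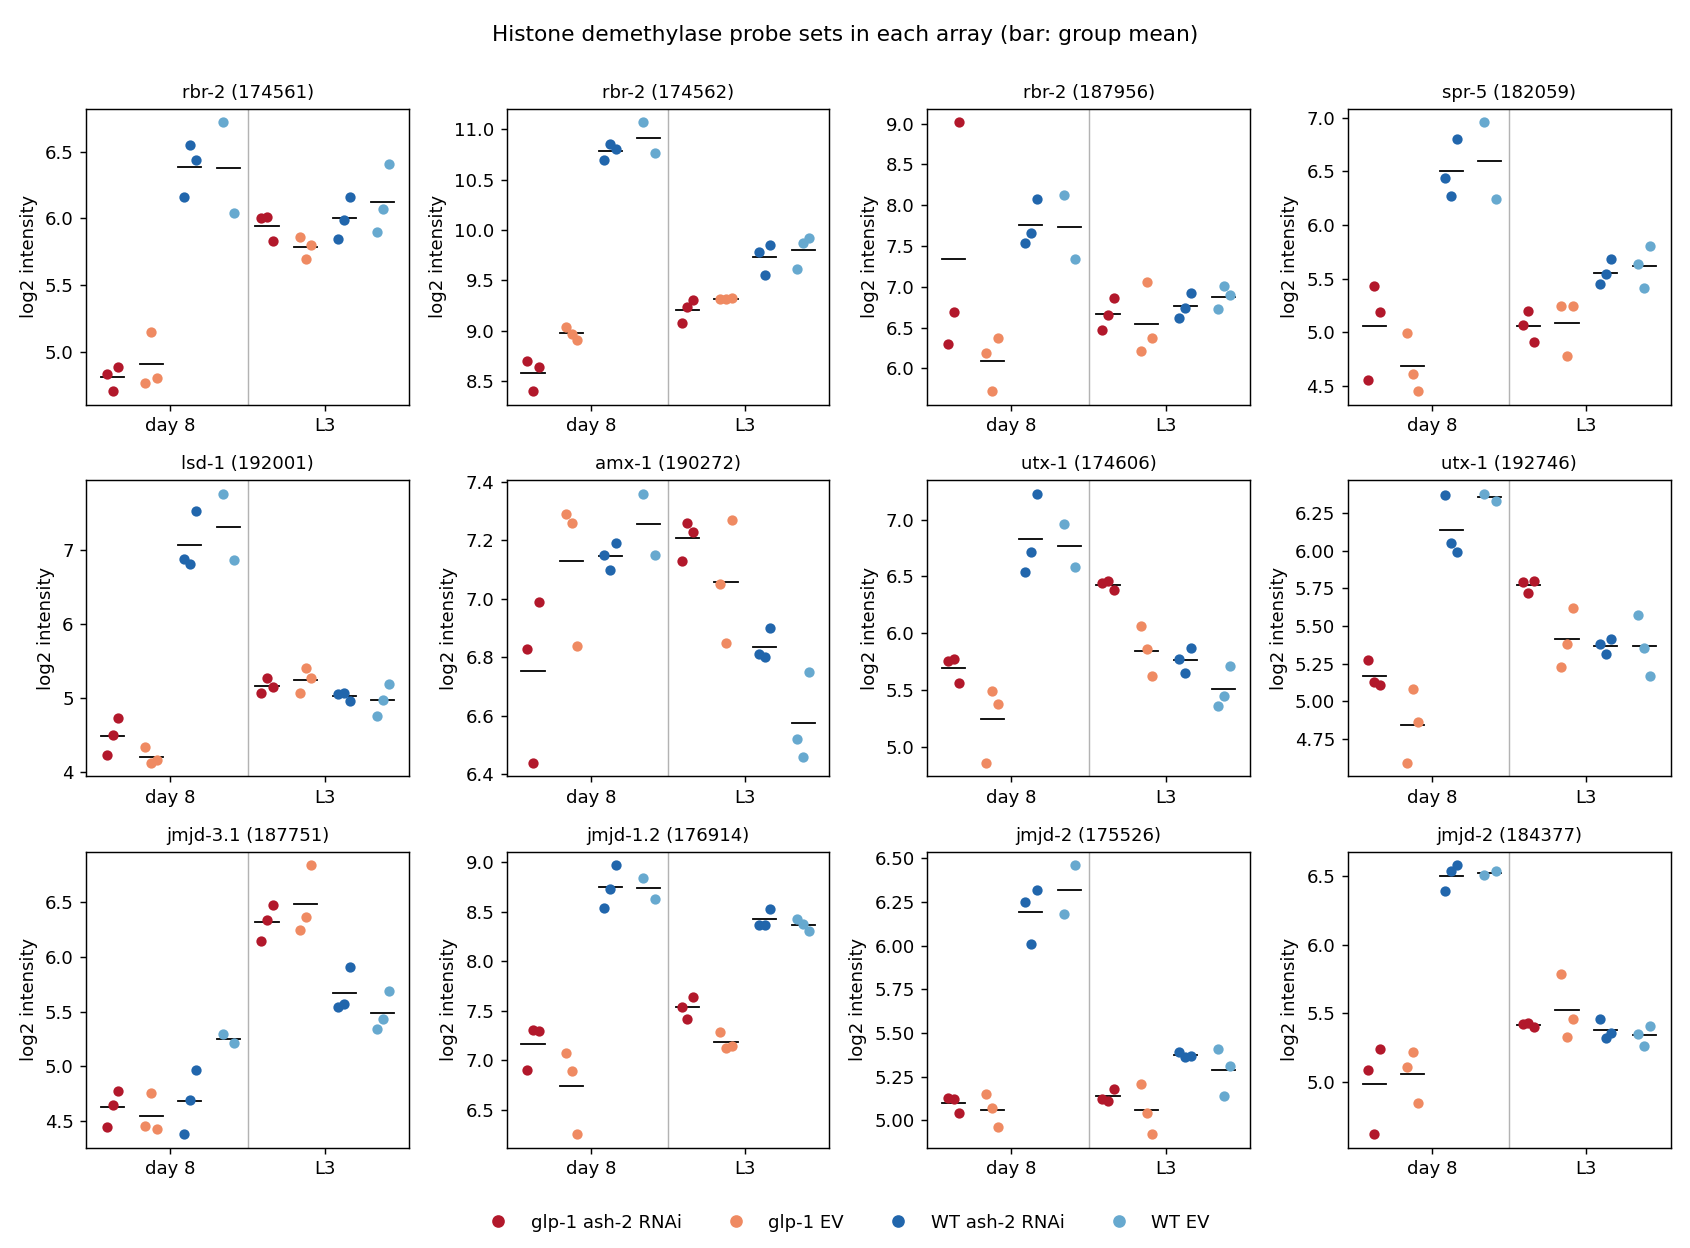
Levels (log2 intensity, y axis) of the 12 demethylase probe sets, 1 panel each, with 1 point per array and the 8 groups along the x axis, day 8 to the left of L3. On day 8 the glp-1 arrays of lsd-1 lie at 4.12 to 4.72 and the WT arrays at 6.81 to 7.76, and at L3 its groups lie close together.

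lsd-1, which encodes an LSD1-type amine oxidase, had the lowest day 8 glp-1 values relative to WT among the 12 probe sets. Its levels on day 8 were 4.33, 4.12 and 4.16 in glp-1 EV arrays, against 7.76 and 6.86 in WT EV arrays. Under ash-2 RNAi they were 4.23, 4.50 and 4.72 in glp-1 arrays, against 6.87, 6.81 and 7.53 in WT arrays. The glp-1 and WT arrays did not overlap under either RNAi. The change was -3.1 ± 0.27 under EV (SE; limma adjusted p = 1.31e-06), and -2.59 ± 0.25 under ash-2 RNAi (limma adjusted p = 2.41e-06). On day 8 lsd-1 stood at percentile 32.3 of its array in glp-1 EV arrays, against 71.1 in WT EV arrays.

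spr-5, an H3K4 demethylase gene of the LSD1 type, had day 8 levels of 4.99, 4.61 and 4.45 in glp-1 EV arrays, against 6.96 and 6.24 in WT EV arrays. With ash-2 RNAi its levels were 4.55, 5.43 and 5.19 in glp-1 arrays, against 6.44, 6.27 and 6.80 in WT arrays. Every day 8 glp-1 array was below every day 8 WT array. The change of spr-5 was -1.92 ± 0.29 under EV (limma adjusted p = 1.18e-04) and -1.45 ± 0.26 under ash-2 RNAi (limma adjusted p = 4.58e-04).

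amx-1, a further amine oxidase gene related to LSD1, did not pass on day 8 on the deposited scale. It had 7.29, 7.26 and 6.84 in glp-1 EV arrays, against 7.36 and 7.15 in WT EV arrays, and these overlapped. The difference was -0.13 with a 95% interval of -0.52 to 0.27 (limma adjusted p = 0.605). With ash-2 RNAi it had 6.83, 6.44 and 6.99 in glp-1 arrays, against 7.15, 7.10 and 7.19 in WT arrays, a difference of -0.40 that did not pass (limma adjusted p = 0.0597). That value passed with median centring (-0.45) and without glp-1 replicate 3 (-0.52), and with arrays centred on muscle and neuron genes amx-1 was called at -2.45 under EV and -1.95 under ash-2 RNAi. The amx-1 interval under EV lies above that of lsd-1, whose upper bound was -2.50.

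rbr-2, the H3K4me3 demethylase gene, was read by 3 probe sets. Probe set 174562, the brightest, had day 8 levels of 9.04, 8.97 and 8.91 in glp-1 EV arrays, against 11.07 and 10.76 in WT EV arrays. Under ash-2 RNAi it had 8.70, 8.40 and 8.64 in glp-1 arrays, against 10.69, 10.85 and 10.80 in WT arrays. Those glp-1 and WT arrays did not overlap. Its change was -1.94 ± 0.13 under EV (limma adjusted p = 1.44e-07) and -2.20 ± 0.12 under ash-2 RNAi (limma adjusted p = 1.97e-08). Probe set 174561, which is not shared, fell too, with changes of -1.47 ± 0.20 under EV and -1.57 ± 0.18 under ash-2 RNAi and no overlap.

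The remaining rbr-2 probe set, 187956, was less even between arrays. Its day 8 levels were 6.19, 5.72 and 6.37 in glp-1 EV arrays, against 8.13 and 7.34 in WT EV arrays. Under ash-2 RNAi they were 6.30, 6.69 and 9.02 in glp-1 arrays, against 7.54, 7.66 and 8.08 in WT arrays, so 1 glp-1 array lay above every WT array. Its change of -1.64 ± 0.63 under EV passed (limma adjusted p = 0.0454) and was lost when any 1 of the 5 arrays was left out, with changes between -2.03 and -1.25. Under ash-2 RNAi it did not pass (-0.42, limma adjusted p = 0.568), but without the array that read 9.02, glp-1 replicate 3, the change was -1.27 and passed (limma adjusted p = 0.00226), as it did with arrays centred on muscle and neuron genes (-1.98).

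utx-1, the H3K27 demethylase gene, was lower in day 8 glp-1 arrays at both of its probe sets. Probe set 174606 had 4.86, 5.49 and 5.38 in glp-1 EV arrays, against 6.96 and 6.58 in WT EV arrays. Probe set 192746 had 4.59, 5.08 and 4.86 in glp-1 EV arrays, against 6.38 and 6.33 in WT EV arrays. The changes were -1.53 ± 0.23 and -1.51 ± 0.16 (limma adjusted p = 1.15e-04 and 5.98e-06), without overlap. Under ash-2 RNAi the changes were -1.14 ± 0.20 and -0.97 ± 0.14, again without overlap.

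jmjd-3.1, a H3K27 demethylase gene of the same subfamily, had the smallest called day 8 difference. It had 4.46, 4.76 and 4.43 in glp-1 EV arrays, against 5.30 and 5.21 in WT EV arrays, a change of -0.70 ± 0.18 (limma adjusted p = 0.00517). Under ash-2 RNAi it had 4.45, 4.65 and 4.78 in glp-1 arrays, against 4.38, 4.69 and 4.97 in WT arrays. Those arrays overlapped, and the difference was -0.05 with a 95% interval of -0.40 to 0.30 (limma adjusted p = 0.818). With arrays centred on muscle and neuron genes it was called at -1.60 (limma adjusted p = 8.21e-07).

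jmjd-1.2, whose product removes H3K9 and H3K27 methylation, had 7.07, 6.89 and 6.25 in day 8 glp-1 EV arrays, against 8.84 and 8.63 in WT EV arrays. Under ash-2 RNAi it had 6.90, 7.30 and 7.29 in glp-1 arrays, against 8.54, 8.73 and 8.97 in WT arrays. Its change was -1.99 ± 0.23 under EV and -1.58 ± 0.21 under ash-2 RNAi (limma adjusted p = 1.44e-05 and 3.99e-05), with no overlap. jmjd-2, a gene of the KDM4 type, had 5.15, 5.07 and 4.96 at probe set 175526 in glp-1 EV arrays, against 6.18 and 6.46 in WT EV arrays. At probe set 184377 it had 5.11, 5.22 and 4.85 in glp-1 EV arrays, against 6.51 and 6.54 in WT EV arrays. The jmjd-2 changes under EV were -1.26 ± 0.13 and -1.47 ± 0.18, without overlap, and both probe sets fell under ash-2 RNAi too (-1.1 ± 0.12 and -1.52 ± 0.16).

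With ash-2 RNAi, 9 of the 12 probe sets, covering 6 genes, were lower in day 8 glp-1 than in day 8 WT worms and 0 were higher. The background was 25.4% of all probe sets lower and 53.6% called in either direction. The EV and ash-2 RNAi comparisons use different arrays, and the 3 probe sets not called under ash-2 RNAi were those of amx-1 and jmjd-3.1 and probe set 187956 of rbr-2. Whether the genotype difference changed with RNAi is given below as an interaction.

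**Figure D2:**
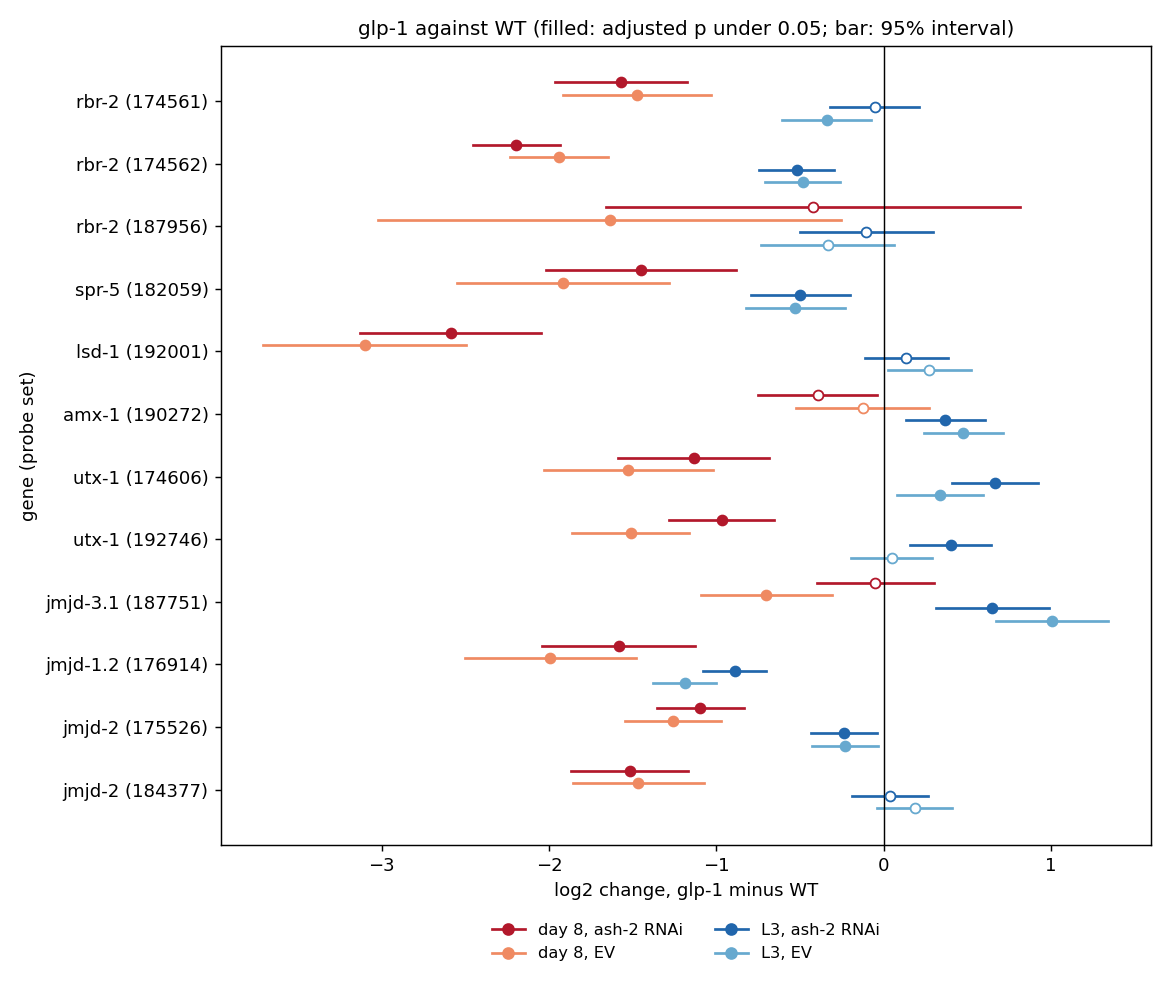
Log2 change, glp-1 minus WT (x axis), of each probe set (y axis) in the 4 comparisons of genotype. Points are limma estimates, bars 95% intervals, and filled points have an adjusted p under 0.05. Day 8 changes lie left of 0 for most probe sets, while L3 changes lie on both sides, those above 0 for amx-1, utx-1 and, under ash-2 RNAi, jmjd-3.1 turning below 0 when arrays are centred on muscle and neuron genes.

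At L3 the same genes were split between higher and lower in glp-1 worms on the deposited scale. Under EV, 5 of the 12 probe sets fell and 3 rose, against 22.1% of all probe sets lower and 33.4% higher (55.5% in either direction). Under ash-2 RNAi, 4 fell and 4 rose, against 20.8% lower and 28.1% higher (48.9% in either direction). These splits depended on the scaling. With arrays centred on muscle and neuron genes, 11 fell and 0 rose under EV and 10 fell and 0 rose under ash-2 RNAi. Of all 22548 probe sets, 18909 and 20544 were then called in either direction. With median centring 3 fell and 5 rose under EV and 3 fell and 4 rose under ash-2 RNAi, beside 15221 and 12299 of all called. The median change of the 12 was -0.09 under EV, beside 0.11 for all probe sets, and -0.01 under ash-2 RNAi, beside 0.07. Germline markers fell here as well, all 13 of 13, with mean levels of 5.55 to 5.88 in glp-1 EV arrays and 8.94 to 9.13 in WT EV arrays, and their part in these values was not tested.

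Genes that fell at L3 included jmjd-1.2, spr-5 and rbr-2. jmjd-1.2 had 7.28, 7.12 and 7.14 in glp-1 EV arrays, against 8.43, 8.38 and 8.30 in WT EV arrays, without overlap. Its change was -1.19 ± 0.09 under EV and -0.89 ± 0.09 under ash-2 RNAi (limma adjusted p = 1.23e-07 and 2.73e-06). spr-5 had 5.24, 4.78 and 5.24 in glp-1 EV arrays, against 5.64, 5.41 and 5.80 in WT EV arrays. These did not overlap, and spr-5 changed by -0.53 ± 0.14 (limma adjusted p = 0.00475), and by -0.50 ± 0.14 under ash-2 RNAi.

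rbr-2 probe set 174562 had 9.31, 9.31 and 9.32 in L3 glp-1 EV arrays, against 9.61, 9.87 and 9.92 in WT EV arrays, and changed by -0.48 ± 0.10 (limma adjusted p = 0.00123). It changed by -0.52 ± 0.10 under ash-2 RNAi, and its groups did not overlap under either RNAi. Probe set 174561 of rbr-2 fell by 0.34 under EV (limma adjusted p = 0.0313), and did not pass under ash-2 RNAi. The EV call was lost when any of 3 arrays was left out (-0.20 without WT replicate 3), with quantile normalization (-0.22), with median centring (-0.23) and with only the arrays compared. jmjd-2 probe set 175526 fell under EV (-0.23) and ash-2 RNAi (-0.24), with limma adjusted p = 0.0475 and 0.0471, and the calls were lost when any of 4 arrays was left out under EV and any of 6 under ash-2 RNAi, and under both with median centring (-0.12 and -0.16) and trend and robust settings. The EV call was lost too with only the arrays compared, and the ash-2 RNAi call with quantile normalization. The other jmjd-2 probe set, 184377, did not pass under EV (0.19) or ash-2 RNAi (0.04).

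Genes that rose at L3 on the deposited scale were jmjd-3.1, amx-1 and utx-1. jmjd-3.1 had 6.25, 6.37 and 6.84 in glp-1 EV arrays, against 5.34, 5.43 and 5.69 in WT EV arrays. It rose by 1.01 ± 0.16 under EV and 0.65 ± 0.16 under ash-2 RNAi (limma adjusted p = 9.67e-05 and 0.0034), and no L3 glp-1 array overlapped the WT arrays of its RNAi, but with arrays centred on muscle and neuron genes the value under ash-2 RNAi was -0.31 and the one under EV no longer passed. amx-1 had 7.05, 6.85 and 7.27 in glp-1 EV arrays, against 6.52, 6.46 and 6.75 in WT EV arrays, without overlap. It rose by 0.48 ± 0.11 under EV and 0.37 ± 0.11 under ash-2 RNAi (limma adjusted p = 0.00202 and 0.0126), and both turned to falls with that centring (-0.42 and -0.59).

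utx-1 rose at L3 at 1 of its probe sets under EV and at both under ash-2 RNAi. Probe set 174606 had 6.06, 5.86 and 5.62 in glp-1 EV arrays, against 5.36, 5.45 and 5.71 in WT EV arrays, which overlapped. Under ash-2 RNAi it had 6.44, 6.46 and 6.38 in glp-1 arrays, against 5.77, 5.65 and 5.87 in WT arrays, which did not. The changes were 0.34 ± 0.12 under EV, a call lost when any of 4 arrays was left out, and 0.67 ± 0.12 under ash-2 RNAi (limma adjusted p = 0.0264 and 3.81e-04). Probe set 192746 did not pass under EV (0.05) and rose by 0.40 ± 0.11 under ash-2 RNAi, and centring on muscle and neuron genes turned all 4 of these utx-1 values below 0. lsd-1 did not pass at L3 under EV, with 5.06, 5.40 and 5.26 in glp-1 arrays against 4.75, 4.97 and 5.18 in WT arrays (0.27, limma adjusted p = 0.0595), nor under ash-2 RNAi (0.14). The EV value passed with median centring (0.38), with the replicate block (limma adjusted p = 0.0349), without WT replicate 3 (0.38) and without glp-1 replicate 1 (0.36), and it was -0.63 with arrays centred on muscle and neuron genes.

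That centring assumes that the 35 probe sets of muscle and neuron markers are equal between groups, and it moved the median of all probe sets by -0.90 for glp-1 against WT under EV at L3 and by -2.32 on day 8. Relative to that shift the order of the members is unchanged, since it adds the same amount to every probe set of an array. On day 8 all 8 muscle markers and 6 of 9 neuron markers were higher in glp-1 EV than in WT EV arrays, with list medians of 2.42 and 2.58. All 6 intestine markers were higher too, with a list median of 3.3. Of 5 hypodermis markers 2 were higher and 1 lower, with a list median of 0.34.

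Of the 8 genes, 3 were X-linked, namely lsd-1, utx-1 and jmjd-3.1, and the other 5 lie on autosomes, per the RefSeq gene table (assembly WBcel235). utx-1 and jmjd-3.1 have 0 protein-coding genes starting between them there. At L3 under EV, 1.52% of the 3036 X-linked probe sets were lower in glp-1 than in WT worms, beside 26.2% of 17657 autosomal ones, and 63.2% and 29.5% were higher. None of the 4 X-linked member probe sets was lower then, and those of jmjd-3.1 and utx-1 174606 were the X-linked ones that rose. On day 8 under EV, 305 of the 3036 X-linked and 30.7% of the autosomal probe sets were lower, and all 4 X-linked member probe sets fell. These shares are descriptions, with no test of chromosome.

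The genotype difference changed between the ages. The genotype by age interaction under EV, the glp-1 minus WT difference on day 8 less that at L3, was below 0 and passed for 11 of the 12 probe sets, covering all 8 genes, beside 28.2% of all probe sets below 0 and 24.5% above 0 (52.7% in all). lsd-1 had the lowest value, -3.38 ± 0.30 (limma adjusted p = 7.26e-09), followed by utx-1 174606 at -1.86 ± 0.26 and jmjd-3.1 at -1.71 ± 0.25. The lsd-1 probe set stood low in L3 WT EV (percentile 37.4), L3 glp-1 EV (41.9) and day 8 glp-1 EV arrays (32.3). Without detection calls, it is not shown to read above background in those groups. jmjd-3.1 was higher in glp-1 than in WT arrays at L3 and lower on day 8. amx-1, not called on day 8 itself, had the smallest called value, -0.60 ± 0.21 (limma adjusted p = 0.0201), and that call was lost when any of 4 arrays was left out. The test removes a constant offset between ages but not a difference in how far the normalization compressed the values.

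Within-array percentiles describe the ages side by side. In glp-1 EV arrays, lsd-1 stood at percentile 32.3 on day 8 and 41.9 at L3, spr-5 at 44.4 and 39.5, and jmjd-2 184377 at 50.8 and 46.5. In WT EV arrays lsd-1 stood at 71.1 on day 8 and 37.4 at L3, spr-5 at 65.7 and 46.8, and jmjd-2 184377 at 65.2 and 43.3. jmjd-3.1 stood at 41.8 on day 8 and 58.6 at L3 in glp-1 EV arrays and at 54.3 and 45.1 in WT EV arrays. rbr-2 174562 was bright throughout, at 86.4 on day 8 and 87.7 at L3 in glp-1 EV arrays and at 96.8 and 90.9 in WT EV arrays. The WT percentiles of these 5 genes were higher on day 8, and their glp-1 percentiles were higher on day 8 for some and lower for others.

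Between arrays labelled ash-2 RNAi and EV, most demethylase probe sets had no call. In L3 WT worms 0 of 12 passed, beside 0.328% of all probe sets, and 2 had an unadjusted p under 0.05, beside 6.84% of all. In day 8 WT worms 0 passed, beside 1.47%, and 1 had an unadjusted p under 0.05, beside 8.06%. In day 8 glp-1 worms 0 passed, beside 14.8%, and 5 had an unadjusted p under 0.05, beside 28.0%. With arrays centred on muscle and neuron genes 10 were higher there, beside 19028 of all 22548 probe sets called in either direction. In L3 glp-1 worms 1 of 12 rose, beside 0.501% of all probe sets higher and 0.798% called in either direction, and 3 had an unadjusted p under 0.05, beside 12.5% of all.

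**Figure D3:**
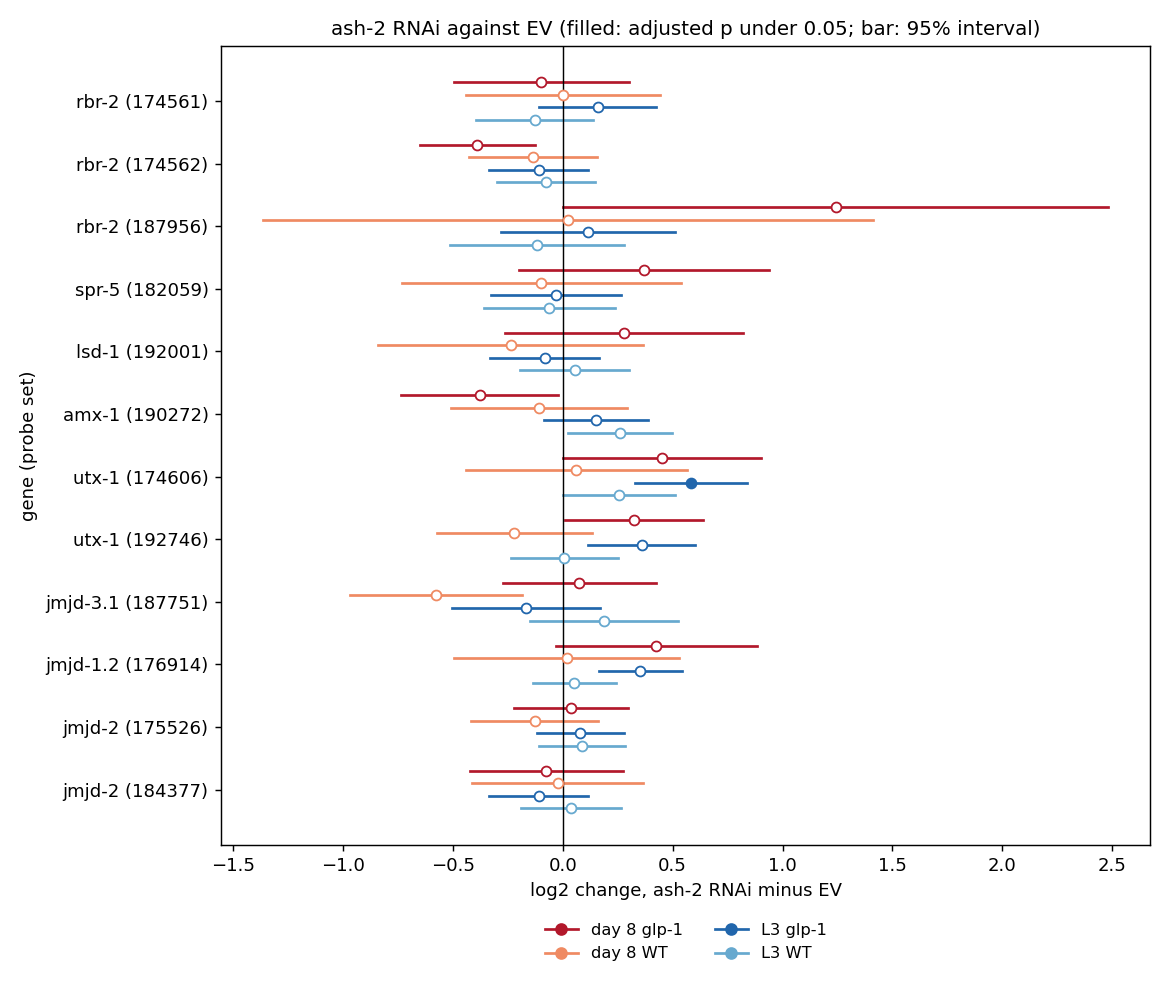
Log2 change, ash-2 RNAi minus EV (x axis), of each probe set (y axis) in the 4 combinations of age and genotype. Points are limma estimates, bars 95% intervals, and the single filled point, utx-1 174606 in L3 glp-1 worms at 0.58, has an adjusted p under 0.05, and the widest bars are those of rbr-2 187956 on day 8. Centring day 8 arrays on muscle and neuron genes turns the day 8 glp-1 values of rbr-2 174561 and jmjd-2 184377 above 0.

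The call was utx-1 probe set 174606, with 6.44, 6.46 and 6.38 in L3 glp-1 ash-2 RNAi arrays, against 6.06, 5.86 and 5.62 in L3 glp-1 EV arrays. These did not overlap, and the rise was 0.58 ± 0.12, or 1.5-fold (limma adjusted p = 0.0416). The call was lost without any 1 of 5 of the 6 arrays, with quantile normalization, with median centring and with only those 6 arrays fitted (adjusted p = 0.194), while the change stayed between 0.47 and 0.69. Probe set 192746 of the same gene had 5.79, 5.72 and 5.80 in L3 glp-1 ash-2 RNAi arrays, against 5.23, 5.38 and 5.62 in L3 glp-1 EV arrays. Its change was 0.36 ± 0.11 (unadjusted p = 0.007 by limma), which did not pass after adjustment. In L3 WT worms the changes of the 2 probe sets were 0.26 and 0.01.

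Other values under ash-2 RNAi that stood out before adjustment did not pass it. jmjd-3.1 in day 8 WT worms had 4.38, 4.69 and 4.97 in ash-2 RNAi arrays, against 5.30 and 5.21 in EV arrays, without overlap. The difference was -0.57 ± 0.18 (limma adjusted p = 0.224). jmjd-1.2 in L3 glp-1 worms had 7.54, 7.42 and 7.64 in ash-2 RNAi arrays, against 7.28, 7.12 and 7.14 in EV arrays, a difference of 0.35 ± 0.09 that did not pass. rbr-2 174562 in day 8 glp-1 worms differed by -0.39 ± 0.12 (limma adjusted p = 0.0506), and in those worms the mean germline marker level was 5.04 to 5.22 in ash-2 RNAi arrays and 4.79 to 4.94 in EV arrays.

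No member passed a test of whether the ash-2 RNAi change differed between genotypes or ages. The RNAi by genotype interaction, the glp-1 change less the WT change, was called for 0 of 12 at L3, where 0% of all probe sets passed, and 2 of 12 had an unadjusted p under 0.05, beside 8.24% of all. On day 8 it was called for 0 of 12, beside 4.0% of all probe sets, and 2 had an unadjusted p under 0.05, beside 17.6% of all. The RNAi by age interaction, the day 8 change less the L3 change, was called for 0 of 12 in glp-1, beside 9.73% of all, and for 0 of 12 in WT, beside 1.55%, with 1 unadjusted p under 0.05 in each, beside 23.1% of all in glp-1 and 8.10% in WT. With arrays centred on muscle and neuron genes, 8 of 12 were called in the day 8 RNAi by genotype interaction, beside 14116 of all 22548 probe sets. In the RNAi by age interaction of glp-1 worms 10 were then called, beside 17764 of all. For utx-1 174606 the interaction at L3 was 0.33 with a standard error of 0.17 (limma adjusted p = 0.64), so the rise in glp-1 worms is not shown to differ from the WT value. jmjd-3.1 had -0.76 ± 0.25 in the RNAi by age interaction of WT worms (limma adjusted p = 0.185), which passed under no setting tried other than the replicate block.

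Other genes of the same pathways were read on day 8 under EV from lists chosen by name, with 1 probe set per gene. Of all probe sets, 26.6% fell and 28.3% rose in that comparison. Among 9 other genes of the demethylase families, 4 fell and 2 rose in glp-1 relative to WT worms, with a list median of -0.07. Those that fell included jhdm-1, a Jumonji-domain gene (-2.94 ± 0.19), and psr-1, the phosphatidylserine receptor gene that also carries that domain (-2.93 ± 0.20). The amine oxidase genes amx-3 (3.00 ± 0.22) and amx-2 (1.64 ± 0.26, shared probe set) rose.

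All 6 of 6 partner genes of the CoREST complex and the spr group, the repressors that work with LSD1-type enzymes, fell on day 8, with a list median of -2.64. rcor-1, a CoREST homologue, changed by -3.77 ± 0.20, spr-1, another, by -2.82 ± 0.14, spr-2 by -2.90 ± 0.20 and the histone deacetylase hda-1 by -2.45 ± 0.12. All 8 of 8 H3K4 methyltransferase complex genes fell (list median -2.05), among them set-2, the main H3K4 methyltransferase (-3.2 ± 0.18), wdr-5.1 (-2.39 ± 0.13) and hcf-1 (-4.59 ± 0.12). All 8 of 8 genes of H3K9, H3K27 and H3K36 methylation fell (list median -2.43), among them set-32 (-3.97 ± 0.15) and the germline H3K36 methyltransferase gene mes-4 (-3.82 ± 0.21, shared probe set). Of all probe sets, 26.6% fell in the same comparison. Germline markers had a list median of -4.77 there, and their part in these falls was not tested.

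Genes reported downstream of these demethylases were mixed. Of 8, 5 fell and 1 rose in day 8 glp-1 relative to WT worms under EV. hop-1, the presenilin gene that spr genes repress, fell by 5.18 ± 0.13, and hsf-1, the heat shock factor gene, fell by 1.91 ± 0.30 (shared probe set). dve-1, a homeodomain gene of the mitochondrial stress response, rose by 2.12 ± 0.21, and hsp-6, a mitochondrial chaperone gene of that response, fell by 1.02 ± 0.15. At L3 under EV, 3 of the 8 fell and 1 rose. Under the same comparison at L3, 6 of 8 H3K4 methyltransferase complex genes, 6 of 8 genes of H3K9, H3K27 and H3K36 methylation and 4 of 6 CoREST and spr partners fell, and 0 of any of these lists rose. Of all probe sets, 22.1% fell and 33.4% rose there.

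**Figure D4:**
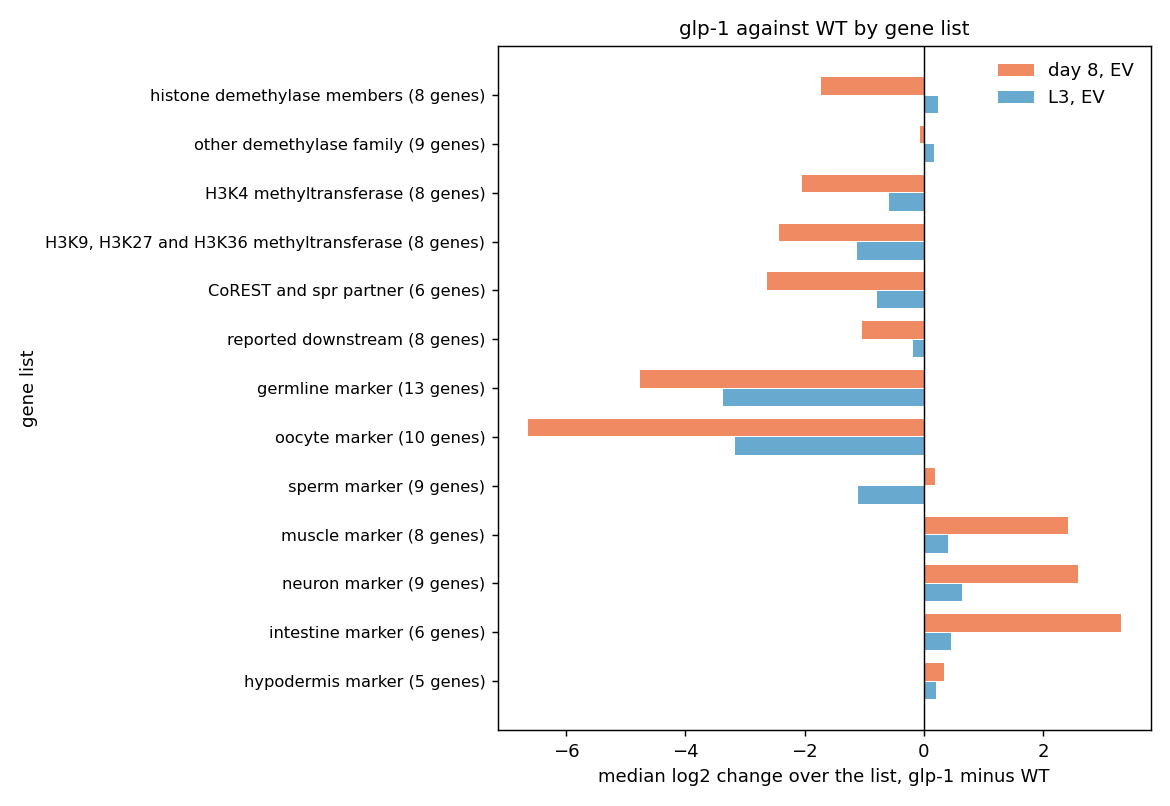
Median log2 change, glp-1 minus WT under EV (x axis), of each gene list (y axis) on day 8 and at L3. With 1 probe set per gene, the 8 demethylase genes have medians of -1.72 on day 8 and 0.23 at L3, the L3 value above 0 where the median of their 12 probe sets is -0.09. The day 8 median is -2.64 for CoREST and spr partners, -2.05 for H3K4 methyltransferase genes and -4.77 for germline markers, while muscle (2.42) and neuron (2.58) markers lie to the right, a direction that centring on those genes removes by construction.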

How the data were processed

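Whole-worm RNA was labelled with biotin and hybridised to 1 array per sample. The authors deposited a log2 intensity for each probe set. Per the submitters' processing notes RMA was used, and its version and the chip definition were not given. All 22548 probe sets were used, unfiltered, and 6 cells were empty, 0 of them in the demethylase probe sets. Of all probe sets 20766 name 1 gene in the platform annotation, 887 several and 895 none, and symbols were updated through the RefSeq gene table (assembly WBcel235).

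Each age was fitted apart with limma 3.58.1 in R 4.3.3 (11 day 8 and 12 L3 arrays, 1 mean per group, default empirical Bayes), and contrasts between ages used all 23 arrays. Tests were two-sided, with Benjamini-Hochberg adjustment across every probe set, and values with ± are standard errors. A probe set rose or fell where its adjusted p was under 0.05. The fit was tested on simulated data. The number of arrays limits the precision. Each list gene was read at its brightest probe set, and list genes were named where they passed, up to 4 per list. The members, lists and rules were chosen with earlier results of these data known.

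Alternatives were quantile normalization, 2 other centrings, leaving out the dimmest 40% of probe sets, trend and robust settings, replicate number as a block, fitting only the arrays compared, and leaving out each array. Same-numbered arrays deviated together in ash-2 RNAi against EV in L3 WT worms (correlations of 0.245, 0.142 and 0.487 between deviations from the group means). Numbers may pair those samples, but this was not tested and the labels do not state it. In the other 7 comparisons at least 1 correlation was under 0.1, with 0.199, 0.150 and 0.097 in glp-1 against WT at L3 under EV.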

Additional observations from a re-analysis of the deposited data

Results flagged for a closer look

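The glp-1 minus WT difference under EV was lower on day 8 than at L3 for 11 of the 12 demethylase probe sets, by a test of the interaction in limma across all 23 arrays, in which 52.7% of all probe sets passed. The interaction was -3.38 for lsd-1, from differences of -3.1 on day 8 and 0.27 at L3, its percentile being low outside day 8 WT. It was -1.86 and -1.56 for utx-1 174606 and 192746, the other H3K27 gene jmjd-3.1 having -1.71. For jmjd-2 it was -1.03 at 175526 and -1.65 at 184377, and for jmjd-1.2 it was -0.80. For rbr-2 it was -1.13 at 174561 and -1.46 at 174562, and for spr-5 it was -1.39. amx-1 had -0.60, from a difference of -0.13 on day 8 and 0.48 at L3. The sign of the L3 difference of amx-1, utx-1, lsd-1 and jmjd-2 184377 turned with centring on muscle and neuron genes. All 11 interactions kept their call under it, with 19493 of all 22548 probe sets then called. Their sign could not turn, since that centring moved the median interaction of all probe sets by -1.42 and these values were already below 0. Quantile normalization removed the call of jmjd-1.2 (-0.31), and leaving out any of 4 arrays that of amx-1.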

How the results depend on the processing

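Under every setting run, 0 demethylase probe sets were called between RNAi groups of WT worms at either age and 0 in the L3 RNAi by genotype interaction. Of the probe sets that fell on day 8, 11 in glp-1 EV against WT EV became 10 with any 1 array left out and 10 to 12 under the 7 other settings, and 9 under ash-2 RNAi stayed within 9 to 12. The day 8 counts of 12 came with muscle and neuron centring, when 20712 of all 22548 probe sets were called under EV and 20406 under ash-2 RNAi. On the deposited scale 12371 and 12084 were called. The genotype by age count of 11 stayed within 10 to 12. It was 12 with that centring (19493 of all called, beside 11885) and with the replicate block (11960 of all). The L3 EV genotype count of 8 became 5 with only the arrays compared in the fit, 6 to 8 with an array left out, and 11 (0 higher, 11 lower) with muscle and neuron centring. The ash-2 RNAi count in L3 glp-1 worms was 1 and became 0 with quantile normalization, median centring, muscle and neuron centring, and only the arrays compared, and lay between 0 and 1 with an array left out, while all called probe sets went between 25 and 307 beside 180. The day 8 glp-1 count of 0 became 1 with trend and robust settings (rbr-2 174562) and 0 to 1 with an array left out (1 without ash-2 RNAi replicate 1). The RNAi by age count of 0 in glp-1 worms became 1 without day 8 EV replicate 3 or ash-2 RNAi replicate 3, a range of 0 to 1.

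With replicate number as a block, ash-2 RNAi against EV in L3 WT worms kept 0 demethylase calls, and its all-probe-set count was 95 beside 74. Numbers are not shown to pair the samples in any comparison. In L3 glp-1 worms under ash-2 RNAi the block gave 0 in place of 1. For RNAi by age in WT worms it gave 1 in place of 0 (jmjd-3.1, -0.82).

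Centring on muscle and neuron genes moved the median of all probe sets by 0.73 for day 8 glp-1 worms under ash-2 RNAi, and 10 demethylase probe sets were then called there (19028 of all, beside 3339), 8 in the day 8 RNAi by genotype interaction (14116 beside 902) and 10 in the RNAi by age interaction of glp-1 worms (17764 beside 2194). It turned 17 values, sign changes being counted only where a value was called in either fit. In day 8 glp-1 worms under ash-2 RNAi against EV these were rbr-2 174561 (0.64) and jmjd-2 184377 (0.66). For glp-1 against WT at L3 under EV they were lsd-1 (-0.63), amx-1 (-0.42), utx-1 174606 (-0.56) and 192746 (-0.85), and jmjd-2 184377 (-0.71). Under ash-2 RNAi they were lsd-1 (-0.83), amx-1 (-0.59), utx-1 174606 (-0.30) and 192746 (-0.56), jmjd-3.1 (-0.31) and jmjd-2 184377 (-0.92). In the RNAi by age interaction of glp-1 worms they were rbr-2 174562 (0.51), utx-1 174606 (0.66) and 192746 (0.75), and jmjd-2 175526 (0.74). Over all settings the counts of all called probe sets also moved by over 1.5 times for ash-2 RNAi in WT worms (39 to 168 beside 74 at L3, 128 to 413 beside 331 on day 8), the L3 RNAi by genotype interaction (0 to 62 beside 0), RNAi by age in WT worms (168 to 588 beside 349), the day 8 RNAi by genotype interaction (385 beside 902 without WT EV replicate 2), day 8 glp-1 worms under ash-2 RNAi (1980 beside 3339 with only the arrays compared) and, by this centring, glp-1 against WT (18909 beside 12521 and 20544 beside 11023 at L3, 20712 beside 12371 and 20406 beside 12084 on day 8, EV first) and genotype by age (19493 beside 11885). Beyond the centring itself the cause was not tested. At L3 the dim filter left out lsd-1, and without detection calls its L3 level has no lower bound.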

Other observations

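Genes whose levels ran most like those of a demethylase gene were named by Pearson's r over the 23 arrays after the mean of each age was subtracted, which is a description, since all arrays share the genotype difference. rbr-2 174562 ran most like fem-2, a sex determination gene (r = 0.987), lsd-1 like flh-2 (0.986), jmjd-1.2 like prpf-4 (0.979), spr-5 like F45F2.10 (0.974) and jmjd-2 184377 like fbxa-170 (0.971). For jmjd-1.2 the next genes were eri-9 (0.978) and prg-1, the piRNA-binding Argonaute gene (0.977). For utx-1 174606 the first was nrde-3, a somatic nuclear RNAi Argonaute gene (0.925). jmjd-3.1 ran most like che-14 and mam-3 (0.899 each). amx-1 had the lowest such value, 0.841 with cgef-1. The probe sets of prpf-4, prg-1, nrde-3, che-14 and mam-3 were shared.

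Among the members, most pairs of probe sets of 1 gene ran more closely together on day 8 than at L3, again after centring within age. For rbr-2 174561 and 174562 r was 0.98 over 11 day 8 arrays and 0.59 over 12 L3 arrays, for the utx-1 pair 0.93 and 0.57, and for the jmjd-2 pair 0.96 and -0.09. rbr-2 187956 correlated with 174562 at 0.48 on day 8 and 0.51 at L3, and with 174561 at 0.54 and 0.28. These values span both genotypes, and the part of the genotype difference in them was not tested.

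In day 8 glp-1 ash-2 RNAi replicate 3, rbr-2 187956 read 9.02, against 6.30 and 6.69 in the other arrays of its group, a gap of 2.33. The same array read 4.89 at rbr-2 174561 and 8.64 at 174562, beside 4.84 and 4.71, and 8.70 and 8.40, in its group mates. In all, 7 probe sets of that array lay more than 2 above both other arrays, and rbr-2 187956 was the single demethylase probe set to do so in any group of 3.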
